A study of Mus musculus with 11 samples.

Results

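Imprinted growth regulators are genes expressed mainly from the chromosome copy of 1 parent, many of which raise or restrain growth before and after birth. This account follows 10 of them, H19, Dlk1, Meg3, Peg3, Mest, Plagl1, Cdkn1c, Grb10, Ndn and Zim1, through 11 RNA-seq libraries of mouse mammary epithelial cells. They were chosen as a named list of mouse symbols matched to the Entrez identifiers of the count tables, 10 of 27179 genes. All 10 passed the filter on low counts, as did 15422 genes in the whole series.

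The study profiled freshly sorted cells and cultured cells to ask how far short-term cultured basal cells can serve in place of freshly isolated ones. The sorted cells came from mammary glands of wild type virgin female FVB/N mice aged 8 weeks and formed 3 populations with 3 libraries each, namely basal cells enriched for mammary stem cells and sorted as CD24+CD29hi (Basal), cells enriched for luminal progenitors and sorted as CD24+CD29loCD61+ (LP), and cells enriched for mature luminal cells and sorted as CD24+CD29loCD61- (ML). Mammosphere cells were Basal cells from the same kind of mice after 1 week as floating spheres, and gave 1 library. Comma Dβ cells, a wild type mammary line with stem-like properties derived from a Balb/c mouse in mid-pregnancy, gave 1 library and so stand for 1 line of another strain and reproductive state. Each sorted population is enriched and mixed, and the name under which Basal replicate 1 was submitted contains p53 although its label gives wild type. The labels do not say which libraries share animals, so p-values measure the spread between these libraries, which may be partly technical.

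In genomic imprinting, methylation marks set in the egg or the sperm at a control region silence 1 parental copy of nearby genes, often of several genes in a cluster. H19 and Meg3 are non-coding RNAs made from the maternal copy, and their neighbours Igf2 and Dlk1 are made from the paternal copy. Cdkn1c and Zim1 are maternally expressed, Grb10 is maternally expressed in most tissues outside the brain, and Peg3, Mest, Plagl1 and Ndn are paternally expressed. Several of these genes belong to a set that is high in the fetus and in some adult stem cells and falls as tissues mature. Read counts per gene do not show which parental copy was transcribed, so imprinting itself was not measured here.

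The sequence around the start of a gene is 1 place where methylation and many transcription factors can act. Whether the windows below lie in an imprinting control region was not examined. Start-site windows from RefSeq on GRCm38.p6, 250 bases before to 50 bases after an annotated start, were found for 8 of the 10 genes, in 12 windows. H19 and Cdkn1c had no entry. The following windows belong to 3 genes that were higher in Basal than in LP cells (Dlk1, Ndn and Mest) and to the 2 that were higher in LP than in Basal cells (Grb10 and Plagl1). Each reads 5′ to 3′ on the strand of the gene, and capitals mark CG dinucleotides, the bases at which methylation marks are placed.
Dlk1, chr12:109452573-109452872, plus strand: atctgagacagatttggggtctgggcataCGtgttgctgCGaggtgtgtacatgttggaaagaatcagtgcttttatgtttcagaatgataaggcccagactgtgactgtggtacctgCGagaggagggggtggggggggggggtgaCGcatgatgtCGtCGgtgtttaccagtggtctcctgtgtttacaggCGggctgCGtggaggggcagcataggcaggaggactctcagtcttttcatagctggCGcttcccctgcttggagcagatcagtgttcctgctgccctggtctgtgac
Ndn, chr7:62348027-62348326, plus strand: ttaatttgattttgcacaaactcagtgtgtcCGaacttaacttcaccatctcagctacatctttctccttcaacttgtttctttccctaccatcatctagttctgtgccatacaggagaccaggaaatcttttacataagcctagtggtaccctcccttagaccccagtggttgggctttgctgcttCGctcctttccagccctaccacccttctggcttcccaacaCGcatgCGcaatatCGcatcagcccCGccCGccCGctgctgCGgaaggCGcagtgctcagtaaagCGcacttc
Mest, chr6:30737800-30738099, plus strand: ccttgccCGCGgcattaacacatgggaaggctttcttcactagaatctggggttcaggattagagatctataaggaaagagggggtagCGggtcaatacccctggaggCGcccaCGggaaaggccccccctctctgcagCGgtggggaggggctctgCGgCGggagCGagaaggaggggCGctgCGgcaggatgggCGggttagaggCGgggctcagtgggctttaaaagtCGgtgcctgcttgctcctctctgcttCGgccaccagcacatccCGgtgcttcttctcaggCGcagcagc
Grb10, chr11:12037371-12037670, minus strand: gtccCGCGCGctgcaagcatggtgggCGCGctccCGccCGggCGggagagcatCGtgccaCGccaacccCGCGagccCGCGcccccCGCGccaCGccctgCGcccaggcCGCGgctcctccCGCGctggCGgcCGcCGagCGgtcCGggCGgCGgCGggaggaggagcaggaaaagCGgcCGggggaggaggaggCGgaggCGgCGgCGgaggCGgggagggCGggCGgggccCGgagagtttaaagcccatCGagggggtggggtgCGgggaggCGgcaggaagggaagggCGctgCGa
Plagl1, chr10:13090582-13090881, plus strand: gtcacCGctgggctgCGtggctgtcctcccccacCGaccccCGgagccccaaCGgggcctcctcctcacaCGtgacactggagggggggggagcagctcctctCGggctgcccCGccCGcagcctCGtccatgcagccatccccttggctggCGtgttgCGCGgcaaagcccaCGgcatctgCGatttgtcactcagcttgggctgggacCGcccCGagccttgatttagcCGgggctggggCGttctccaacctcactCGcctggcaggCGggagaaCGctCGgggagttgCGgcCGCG
The Dlk1 window held 9 CG dinucleotides, the Ndn window 11, the Mest window shown 17, the Plagl1 window 26 and the Grb10 window shown 45. Grb10 had a second window, with 9 CG dinucleotides and 0 GC boxes, and Mest had 2 others, with 8 and 17. The median over all 32851 windows was 7, and 98.1% of them had fewer than the Grb10 window shown. The hexamer GGGCGG, the GC box bound by Sp1 family proteins, was searched on both strands and was present 5 times in the Grb10 window shown, 2 times in each of the Plagl1 and Ndn windows, 1 time in the Mest window shown and 0 times in the Dlk1 window, while 35.7% of all windows held it. The octamer TGACGTCA, the cyclic AMP response element, which shares no complete hexamer with the GC box, was present 1 time in each of the Peg3 window and the first of the 2 Meg3 windows, and in 1.79% of all windows. These matches describe letters and were not tested against expression.

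H19 also holds a microRNA gene, Mir675, inside its transcript. Its mature products are shown because H19 was the member highest above Basal cells in the mammosphere library, with bases 2 to 8, the seed that pairs with targets, in capitals.
mmu-miR-675-5p, chr7:142577112-142577133, minus strand: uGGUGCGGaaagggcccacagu
mmu-miR-675-3p, chr7:142577078-142577099, minus strand: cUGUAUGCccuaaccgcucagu
The 2 arms have different seeds. Mir675 had a row of its own in the count tables with 0 counts over the 11 libraries, and libraries of this kind do not measure mature microRNAs.

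Total counts ranged from 19958838 to 75795034 per library. The basal list (8 markers such as Krt5 and Krt14) summed to between 16966 and 24276 CPM (counts scaled to library size) in Basal libraries and to between 75.0 and 375 CPM in LP and ML libraries, and the luminal list of 5 keratin and adhesion genes to between 1401 and 1690 CPM in Basal and between 12752 and 16385 CPM in LP and ML libraries. These levels matched the labels of the sorted populations. Some libraries stood apart. LP replicate 2 had the highest sum of 7 fibroblast markers among the sorted libraries (1424 CPM, against 308 and 728 in the other LP libraries), and ML replicate 3 had the highest sum of basal markers among luminal libraries. The mammosphere library had 87.1 CPM over 6 skeletal muscle markers, against 0.729 to 7.51 CPM in the sorted libraries. Every count of called members was also made without Basal replicate 1, LP replicate 2 and ML replicate 3 together, a choice made after the data were seen.

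**Figure D1:**
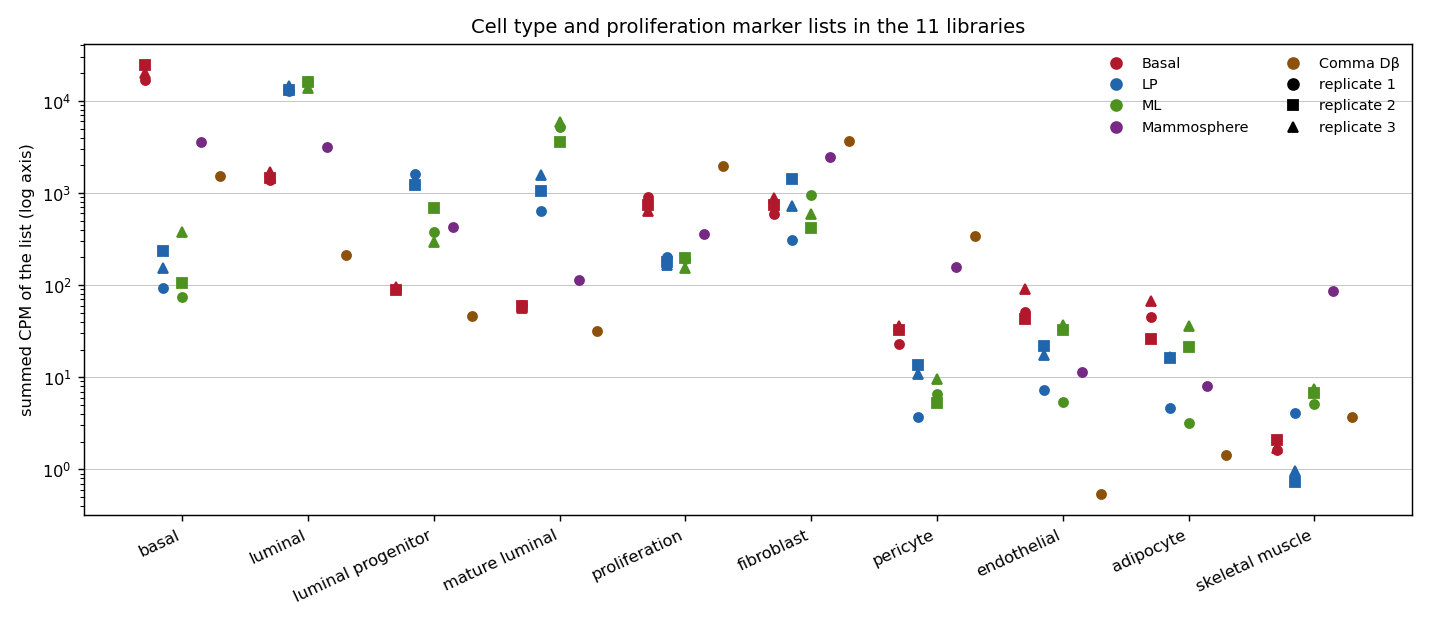
Summed CPM, on a log axis, of 10 marker lists in the 11 libraries, with colour for the group and symbol for the replicate. The basal list is lowest in luminal libraries and the luminal list is lower in Basal than in LP and ML libraries, LP replicate 2 is highest among sorted libraries for fibroblast markers at 1424 CPM, and the mammosphere library stands alone for muscle markers at 87.1 CPM.

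Of the 10 genes, 5 were higher in Basal cells than in either luminal population (Cdkn1c, Ndn, Mest, Dlk1 and Meg3), Grb10 was lower in Basal cells than in either, and Plagl1 was higher in LP cells than in the other populations. Between Basal and LP cells 7 of 10 passed the threshold (false discovery rate under 0.05 over all genes tested, edgeR quasi-likelihood test), 5 higher in Basal and 2 higher in LP. In that comparison 57.4% of all genes tested passed, 29.4% higher in Basal and 28.0% higher in LP. Between Basal and ML cells 8 of 10 passed, 7 higher in Basal and 1 higher in ML, where 58.7% of all genes passed, 28.9% higher in Basal and 29.7% higher in ML. Between LP and ML cells 5 of 10 passed, each higher in LP, where 31.8% of all genes passed, 14.3% higher in LP and 17.5% higher in ML. The share of members called between Basal and LP cells was thus not far from the background. The median log2 fold change of the 10 genes was 1.22 for Basal minus LP, 2.16 for Basal minus ML and 0.86 for LP minus ML, and the medians over all genes tested were -0.0079, -0.0058 and -0.014. These counts and medians include Dlk1, which passed the filter on low counts only through the Basal libraries, where it was high. The Basal comparisons share the Basal libraries, and the LP libraries enter 2 comparisons, so the 3 sets of counts are not independent. Markers of other cells were also higher in Basal libraries. All 5 endothelial markers were higher in Basal than in LP cells (median log2 2.20) and 1 of 5 was higher than in ML cells, with sums of 42.5 to 90.9 CPM in Basal, 7.26 to 22.0 CPM in LP and 5.40 to 36.8 CPM in ML libraries. Of 4 pericyte markers 2 were higher in Basal than in LP cells (Rgs5 and Pdgfrb) and 1 than in ML cells, with sums of 23.1 to 36.0 CPM in Basal and 3.70 to 13.5 CPM in luminal libraries. Of 7 fibroblast markers 0 were higher in Basal cells than in either. The part of these cells in the members' levels was not tested. In bulk samples, fewer cells of a type and less RNA per cell cannot be told apart.

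**Figure D2:**
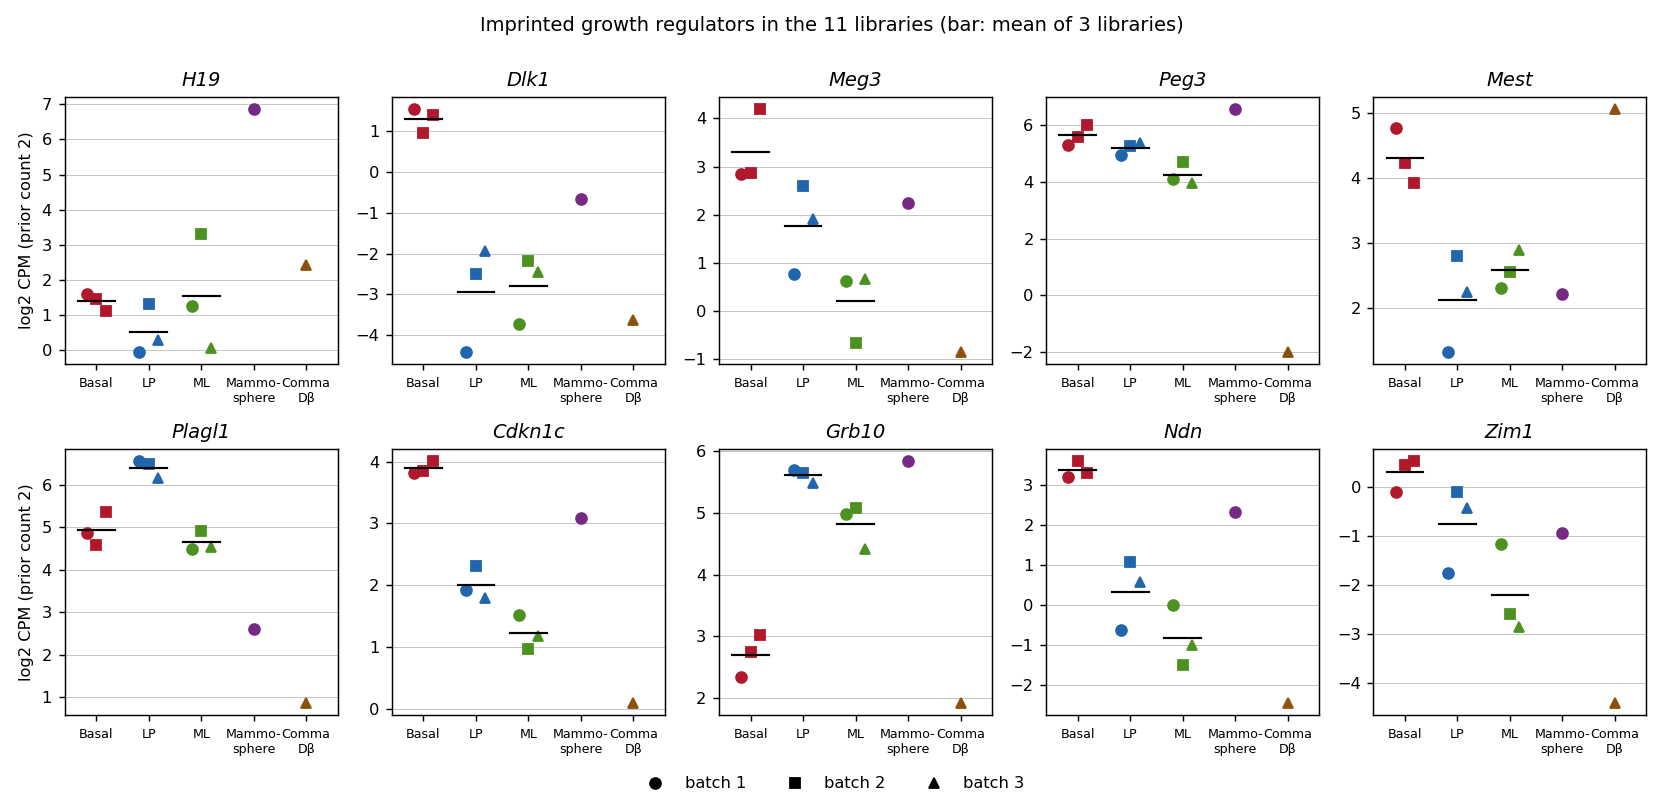
Log2 CPM (prior count 2) of each gene in each library, 1 panel per gene, with groups on the horizontal axis, symbols for the library batch and a bar for the mean of 3 libraries. Cdkn1c, Ndn, Mest and Dlk1 lie higher in all 3 Basal libraries than in any luminal library, Grb10 lies lower, Plagl1 peaks in LP and H19 peaks in the mammosphere library.

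Cdkn1c, Ndn, Plagl1 and Grb10 restrain growth or growth signals. Cdkn1c (Entrez 12577, chr7:143458339-143461059) encodes p57, an inhibitor of cyclin-dependent kinases. Its CPM was 14.0, 14.4 and 16.1 in the Basal libraries, 3.77, 4.94 and 3.42 in the LP libraries and 2.83, 1.91 and 2.23 in the ML libraries. The 3 Basal values lay above all luminal values, and each LP value lay above each ML value. It was 3.65-fold higher in Basal than in LP (log2 1.87, SE 0.22, adjusted p = 5.30e-05) and 6.41-fold higher in Basal than in ML (log2 2.68, SE 0.23, adjusted p = 5.35e-06). In the same cells 9 of 10 proliferation markers, such as Mki67, were higher in Basal than in LP and 10 of 10 higher in Basal than in ML, with sums of 639 to 913 CPM in Basal libraries and 154 to 201 CPM in luminal libraries, so transcripts of the inhibitor and of dividing cells were both more abundant in the Basal population. Whether the same cells carried both was not tested. Of the exon bases of Cdkn1c, 30.7% lie under an antisense transcript model, and the strand setting of the counting is not given in the sources used here.

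Ndn (Entrez 17984, chr7:62348277-62349928) encodes necdin, a MAGE family protein that binds E2F and p53 and restrains growth. Its CPM was 9.04, 12.0 and 9.70 in the Basal libraries, 0.599, 2.04 and 1.44 in the LP libraries and 0.961, 0.305 and 0.455 in the ML libraries. All 3 Basal values were above the luminal values, and LP replicate 1 lay among the ML values. Ndn was 7.40-fold higher in Basal than in LP (log2 2.89, SE 0.47, adjusted p = 4.92e-04) and 18.2-fold higher in Basal than in ML (log2 4.19, SE 0.51, adjusted p = 6.28e-05), the latter 4.81 on the log2 scale without ML replicate 1. The difference between LP and ML, 1.30 on the log2 scale (SE 0.50), missed the threshold at adjusted p = 0.0744.

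Plagl1 (Entrez 22634, chr10:13090832-13131694), a zinc finger transcription factor that can induce cell cycle arrest, was highest in luminal progenitors. Its CPM was 94.3, 89.7 and 71.4 in the LP libraries, 29.1, 23.9 and 41.1 in the Basal libraries and 22.4, 30.0 and 23.2 in the ML libraries. The LP values overlapped neither of the other populations, while Basal and ML values overlapped. Plagl1 was 2.71-fold higher in LP than in Basal (Basal minus LP log2 -1.44, SE 0.21, adjusted p = 2.55e-04) and 3.38-fold higher in LP than in ML (log2 1.76, SE 0.22, adjusted p = 8.79e-04). Both of these calls held with any 1 library left out. Basal minus ML was 0.32 (SE 0.21, adjusted p = 0.224), a difference not larger than the spread between libraries.

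Grb10 (Entrez 14783, chr11:11930499-12037428), an adaptor that binds the insulin and IGF1 receptors and dampens their signal, was a luminal transcript in these cells. Its CPM was 4.98, 6.61 and 8.08 in the Basal libraries, 52.0, 50.4 and 45.0 in the LP libraries and 31.7, 33.6 and 21.2 in the ML libraries. None of the 3 populations overlapped with another. It was 7.50-fold lower in Basal than in LP (log2 -2.91, SE 0.23, adjusted p = 3.64e-06) and 4.41-fold lower in Basal than in ML (log2 -2.14, SE 0.22, adjusted p = 1.93e-05).

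Dlk1, Mest, Peg3 and Zim1 have other roles. Dlk1 (Entrez 13386, chr12:109452485-109463336) encodes a transmembrane protein with EGF-like repeats, related to Notch ligands and known for holding back fat cell differentiation. It had 169, 96 and 138 counts in the Basal libraries (2.86, 1.91 and 2.60 CPM), 0, 7 and 4 counts in the LP libraries and 1, 13 and 3 counts in the ML libraries. Dlk1 was thus present at a low level in Basal cells and near the limit of these libraries in luminal cells. It was 22.0-fold higher in Basal than in LP (log2 4.46, SE 0.67, adjusted p = 2.67e-04) and 20.0-fold higher in Basal than in ML (log2 4.32, SE 0.64, adjusted p = 2.18e-04), the latter 5.03 on the log2 scale without ML replicate 2. Dlk1 exceeded 0.5 CPM in 4 libraries, the 3 Basal libraries and the mammosphere library, so it entered the test through the group in which it was high.

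Mest (Entrez 17294, chr6:30733506-30748466), also called Peg1, encodes a protein of the alpha/beta hydrolase family linked to fetal growth and fat tissue expansion. Its CPM was 27.3, 18.8 and 15.2 in the Basal libraries, 2.47, 6.92 and 4.70 in the LP libraries and 4.92, 5.82 and 7.42 in the ML libraries. Basal values did not overlap with luminal values, and LP and ML values did overlap. It was 4.31-fold higher in Basal than in LP (log2 2.11, SE 0.36, adjusted p = 6.68e-04) and 3.39-fold higher in Basal than in ML (log2 1.76, SE 0.36, adjusted p = 0.00175). LP minus ML was -0.35 (SE 0.36, adjusted p = 0.488). Of its exon bases, 23.1% lie under exons of the antisense neighbour Copg2.

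Peg3 (Entrez 18616, chr7:6703892-6730462), a large zinc finger protein gene that has been used to mark stem cells in several tissues, had the highest CPM of the 10 in Basal cells. Its CPM was 39.7, 48.3 and 63.9 in the Basal libraries, 30.5, 38.5 and 40.9 in the LP libraries and 17.2, 25.9 and 15.5 in the ML libraries. LP values overlapped with Basal values, and ML values lay below both. Peg3 was 2.59-fold higher in Basal than in ML (log2 1.37, SE 0.24, adjusted p = 6.16e-04), while Basal minus LP was 0.47 (SE 0.23, adjusted p = 0.109). Without TMM scaling the latter passed at 0.60 (adjusted p = 0.0431).

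Zim1 (Entrez 22776, chr7:6674444-6696540), a zinc finger gene beside Peg3, was the least abundant member in Basal cells per length. It had 52, 66 and 74 counts in the Basal libraries (0.882, 1.31 and 1.39 CPM), 7, 47 and 13 counts in the LP libraries and 14, 9 and 2 counts in the ML libraries. The highest LP value, 0.879 CPM, lay next to the lowest Basal value. Zim1 was 5.89-fold higher in Basal than in ML (log2 2.56, SE 0.58, adjusted p = 0.00361), and 3.38 on the log2 scale without ML replicate 1. Basal minus LP was 0.95 (SE 0.53, adjusted p = 0.149).

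The remaining members, Meg3 and H19, are non-coding RNAs. Meg3 (Entrez 17263, chr12:109540996-109571729), a long non-coding RNA of the Dlk1 cluster with growth-restraining activity, had a CPM of 7.17, 7.21 and 18.2 in the Basal libraries, 1.66, 6.02 and 3.74 in the LP libraries and 1.50, 0.584 and 1.55 in the ML libraries. The 3 populations did not overlap, but Basal replicate 3 had over 2 times the level of the other Basal libraries. It also had the highest Basal sum of endothelial markers (90.9 CPM, against 50.8 and 42.5 CPM). Its sums of fibroblast (882 CPM), pericyte (36.0 CPM) and adipocyte markers (67.6 CPM) were the highest of the Basal libraries as well. Their part in the result was not tested. Meg3 was 9.28-fold higher in Basal than in ML (log2 3.21, SE 0.59, adjusted p = 9.81e-04), and 2.63 on the log2 scale without Basal replicate 3. It was 2.82-fold higher in Basal than in LP (log2 1.50, SE 0.54, adjusted p = 0.0375). With the library batch as a replicate block the Basal against LP call was lost (log2 1.53, adjusted p = 0.0531), and it was also lost without Basal replicate 3 (0.92, adjusted p = 0.172), LP replicate 1 (1.12, adjusted p = 0.106) or LP replicate 3 (1.47, adjusted p = 0.0887).

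H19 (Entrez 14955, chr7:142575530-142578146), the abundant fetal non-coding RNA that restrains growth in the embryo, was low in all sorted cells. Its CPM was 3.00, 2.71 and 2.11 in the Basal libraries, 0.916, 2.45 and 1.17 in the LP libraries and 2.35, 9.83 and 1.00 in the ML libraries. The populations overlapped, and ML replicate 2, with 740 counts, stood above the rest. Basal minus LP was 0.72 (SE 0.69, adjusted p = 0.393) and Basal minus ML was -0.81 (SE 0.65, adjusted p = 0.309), which became 0.59 without ML replicate 2. LP minus ML was -1.53 (SE 0.69, adjusted p = 0.116), and it passed without ML replicate 3 (-1.97, adjusted p = 0.0330).

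Within the batches that held both populations, differences on the log2 scale kept the direction of the pooled value for each member called. For Basal minus LP, Cdkn1c gave 1.88 and 1.62 in batches 1 and 2, Ndn 3.81 and 2.38, Mest 3.44 and 1.28, Dlk1 5.96 and 3.68, Meg3 2.08 and 0.92, Plagl1 -1.69 and -1.51 and Grb10 -3.37 and -2.78. Batch 3 held no Basal library. For LP minus ML, Meg3 gave 0.14, 3.27 and 1.25 in batches 1, 2 and 3, and Plagl1 gave 2.07, 1.58 and 1.62. H19 changed sign between batches, with Basal minus ML of 0.35 in batch 1 and -2.02 in batch 2.

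**Figure D3:**
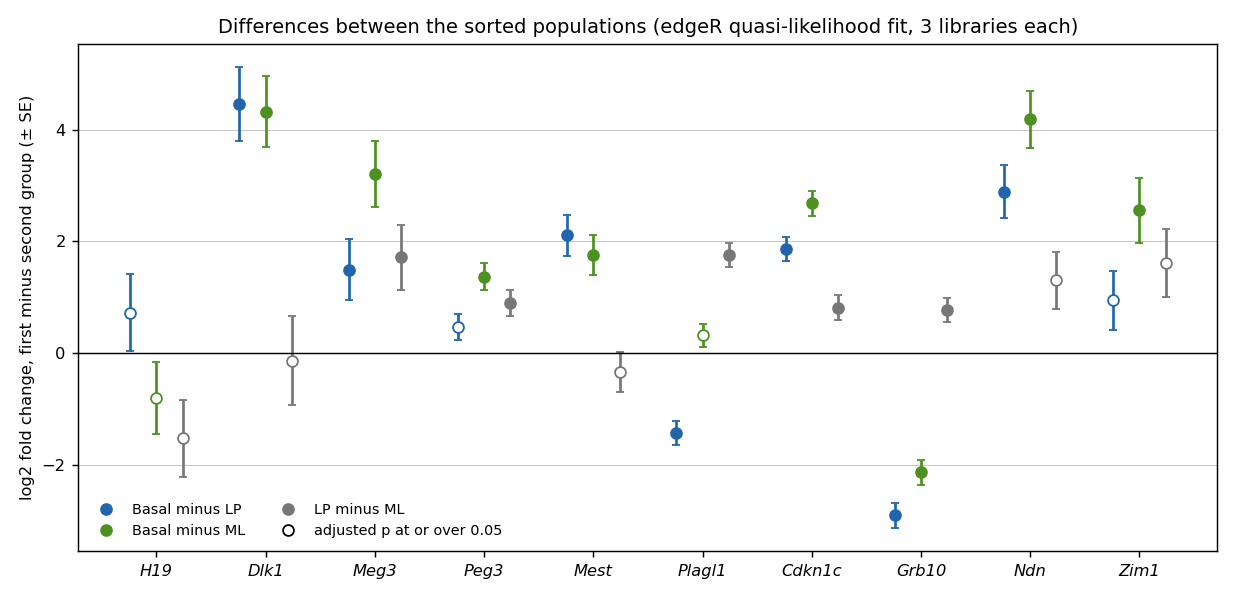
Log2 fold changes with standard errors derived from the test statistic for the 10 genes in the 3 comparisons of sorted populations, 3 libraries per population, with open circles for differences that missed the threshold. Dlk1 and Ndn are highest on the Basal side (4.46 and 2.89 against LP), Grb10 is lowest (-2.91 and -2.14), and Plagl1 is -1.44 for Basal minus LP and 1.76 for LP minus ML.

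Between the 2 luminal populations 4 of the 5 calls were lost when some single library was left out, and the Plagl1 call was not. The members higher in LP than in ML were Plagl1 (above), Meg3 (3.29-fold, log2 1.72, SE 0.58, adjusted p = 0.0464), Peg3 (1.87-fold, log2 0.90, SE 0.23, adjusted p = 0.0167), Cdkn1c (1.76-fold, log2 0.81, SE 0.22, adjusted p = 0.0207) and Grb10 (1.70-fold, log2 0.77, SE 0.21, adjusted p = 0.0215). In these 5 genes, listed here because they were called, no LP value overlapped with an ML value. The same held for 21 of the 39 other imprinted genes tested (below). The share over all genes was not counted, so this lack of overlap is no result about the members. LP replicate 2 had the highest LP level of H19, Meg3, Mest, Cdkn1c, Ndn and Zim1. Its sums of fibroblast, basal, endothelial and pericyte markers were also the highest of the LP libraries. The basal sum was 233 CPM, against 94.2 and 154 CPM in LP replicates 1 and 3. The endothelial sum was 22.0 CPM, against 7.26 and 17.3 CPM, and the pericyte sum 13.5 CPM, against 3.70 and 10.9 CPM. The adipocyte sum was highest in LP replicate 3 (16.5 CPM, against 16.1 CPM in LP replicate 2). The part of transcripts of any of these cells in the members' levels was not tested. Without LP replicate 2, Meg3 stood at 1.21 (adjusted p = 0.178) and Cdkn1c at 0.66 (adjusted p = 0.0751), and Grb10 stood at 0.77 (adjusted p = 0.0535). The Cdkn1c call was also lost without ML replicate 2 (0.67) or ML replicate 3 (0.79), the Grb10 call without LP replicate 1 (0.74) or ML replicate 3 (0.58), and the Peg3 call without ML replicate 1 (0.82) or ML replicate 3 (0.76). The Meg3 call was lost with the replicate block (1.59, adjusted p = 0.0768) and without Basal replicate 1 (1.71), Basal replicate 2 (1.73), LP replicate 3 (1.75), ML replicate 1 (1.96), ML replicate 2 (1.33) or ML replicate 3 (1.93). Conversely, Ndn passed without LP replicate 1 (1.68, adjusted p = 0.0282) or ML replicate 1 (1.94, adjusted p = 0.0301), and Zim1 without LP replicate 1 (2.00, adjusted p = 0.0342) or ML replicate 1 (2.45, adjusted p = 0.0262). With the 3 doubted libraries left out together 2 of 10 members passed, Plagl1 higher in LP and H19 higher in ML (-2.56, adjusted p = 0.0469), while the counts for Basal against LP and Basal against ML stayed at 7 and 8. Within batch 1 the LP minus ML difference was -0.64 for Ndn and -0.59 for Zim1, against 2.57 and 2.48 in batch 2. Without TMM scaling the genes called between LP and ML numbered 1581 higher in LP and 3798 higher in ML, against 2204 and 2695 with it, and the median over all genes moved by -0.17. The 5 members kept their direction without it, but the Meg3 call was lost (1.54, adjusted p = 0.0602).

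Per length (RPKM, the same scale divided by the gene length in kilobases), the order of the members differed between populations. In Basal cells Peg3 (7.65 ± 1.85, SD, n = 3), Cdkn1c (7.64 ± 0.566), Mest (7.35 ± 2.24), Ndn (6.21 ± 0.953) and Plagl1 (5.97 ± 1.67) formed an upper set whose ranges overlapped from each to the next, and Grb10 (1.27 ± 0.300) led a lower set. In LP cells Plagl1 (16.2 ± 2.30), Grb10 (9.53 ± 0.716) and Peg3 (5.53 ± 0.820) were separated from each other and from the rest, with Cdkn1c next at 2.08 ± 0.410. In ML cells Grb10 (5.59 ± 1.29) and Plagl1 (4.79 ± 0.789) overlapped, and Peg3 followed at 2.94 ± 0.840. In the mammosphere library H19 was first at 44.4 RPKM, and in Comma Dβ cells Mest was first at 12.0 RPKM.

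Over the 9 sorted libraries, Cdkn1c and Ndn varied most closely together among the members (Pearson r = 0.98 of log2 CPM), followed by Dlk1 with Mest (0.94). Grb10 ran opposite to Mest (-0.94) and Dlk1 (-0.91). H19 followed no other member, with r from -0.37 to 0.32. The libraries fall into 3 populations, so these values are descriptions of 9 points that share group and batch. Over all genes tested, the closest to Meg3 was Rian (0.994), a maternally expressed non-coding RNA of the same cluster, ahead of Il1rl1 (0.955). The closest to Ndn were Col5a2 (0.997), Adamts2 (0.996) and Aebp1 (0.995), to Cdkn1c Crispld1 (0.996), Maf (0.995) and Axl (0.994), and to Grb10 Tnf (0.996), Bdh1 (0.996) and Sptb (0.995). Mest was closest to Tnfrsf19 (0.988), Dlk1 to Pus7l (0.991), Plagl1 to Plppr4 (0.983), Peg3 to Rhoj (0.975), Zim1 to Tmeff2 (0.975) and H19 to Ciapin1 (0.896).

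After 1 week as mammospheres 3 of the 10 genes lay above the range of the 3 Basal libraries and 7 below it, where 82.8% of all genes tested lay outside that range, 40.8% above and 42.0% below. There was 1 mammosphere library, so no test was made, and differences are given as log2 CPM (prior count 2) minus the Basal mean with a size of over 2 called past the fold. By that measure 2 members were higher and 2 lower, where 8.27% of all genes tested were higher and 8.35% lower. H19 had 5157 counts, 116 CPM (95% exact Poisson interval 113 to 119, counting error only), against a Basal mean of 2.61 CPM, a 44.6-fold difference (log2 5.47). Grb10 had 57.5 CPM against 6.56 in Basal cells (8.77-fold, log2 3.15), a level above that of each LP library. Peg3 had 94.1 CPM, 1.86-fold above the Basal mean (log2 0.92). Plagl1 (6.02 CPM, log2 -2.34) and Mest (4.62 CPM, log2 -2.09) were lower past the fold, and Dlk1 (0.586 CPM, log2 -1.97) lay just short of it. Zim1 (-1.23), Meg3 (-1.06), Ndn (-1.04) and Cdkn1c (-0.80) were lower by less. Against Basal replicate 1 alone, the Basal library of the same batch, Grb10 differed by 3.52 and Mest by -2.55. Without Basal replicate 1 Mest moved to -1.86 and left 3 members past the fold, and without Basal replicate 2 Dlk1 moved to -2.12 and made them 5.

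Markers of other cells moved in the mammosphere library too. Its pericyte sum over 4 genes was 156 CPM against 23.1 to 36.0 CPM in Basal libraries, of which Pdgfrb alone gave 151 CPM, while Rgs5 (1.13 CPM) was below its Basal mean of 4.01 CPM and Abcc9 and Kcnj8 differed by -0.17 and -0.09 on the log2 scale. Its fibroblast sum over 7 genes was 2452 against 592 to 882 CPM. Most of it came from Col1a1, Col1a2 and Col3a1 (837, 685 and 680 CPM). Dcn alone of the 7 went the other way, at 98.5 CPM against a Basal mean of 188 CPM. The skeletal muscle sum over 6 genes was 87.1 against 1.64 to 2.09 CPM, with Myog, a muscle regulator, at 12.4 CPM. Igf2, the paternally expressed growth factor gene of the H19 cluster, was at 23.0 CPM in the mammosphere library and at 2.36, 4.82 and 5.87 CPM in the Basal libraries (log2 difference 2.49). Other lists were lower than in Basal libraries, with endothelial markers at 11.5 CPM (42.5 to 90.9 in Basal), adipocyte markers at 7.95 CPM (26.0 to 67.6), 7.77 of it from Fabp4, and basal markers at 3576 CPM (16966 to 24276). The luminal list was higher at 3159 CPM (1401 to 1690), and so were luminal progenitor markers at 423 CPM (89.4 to 96.4). The part of these cells in the members' levels was not tested.

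In Comma Dβ cells 7 of the 10 genes were lower than the Basal mean past the fold and 0 higher, where 14.6% of all genes tested were lower and 5.10% higher. The Basal range had 2 members above it and 8 below it, where 84.3% of all genes tested lay outside it, 42.1% above and 42.2% below. Peg3 had 6 counts, 0.204 CPM, 248-fold below the Basal mean (95% counting interval 114 to 676). Ndn had 4 counts, 75.4-fold below (29.4 to 277), and Dlk1 had 1 count, a ratio of 72.3 with a counting interval of 12.97 to 2855. Zim1 had 0 counts, which at a floor of 3 counts for this library made it at least 11.7-fold lower. Meg3 (15 counts, 21.3-fold), Plagl1 (52 counts, 17.7-fold) and Cdkn1c (30 counts, 14.5-fold) were lower as well. Mest and H19 went the other way. Mest had 33.4 CPM, above the Basal range of 15.2 to 27.3 CPM (log2 0.75), and H19 had 5.27 CPM against 2.11 to 3.00 CPM (log2 1.02). Grb10 at 3.71 CPM lay below its Basal range by less than the fold (log2 -0.79). Proliferation markers summed to 1982 CPM in this library against 639 to 913 CPM in Basal libraries. Fibroblast markers were at 3668 CPM (592 to 882 in Basal) and pericyte markers at 342 CPM (23.1 to 36.0), 341 of it from Pdgfrb, while endothelial markers were at 0.544 CPM (42.5 to 90.9), basal markers at 1541 CPM (16966 to 24276) and the luminal list at 211 CPM (1401 to 1690). Their part in the members' levels was not tested. The effects of the line, its strain, its reproductive state, its culture and its library batch cannot be told apart with 1 library. It was in batch 3, which held no Basal library, so no comparison within a batch could be made.

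**Figure D4:**
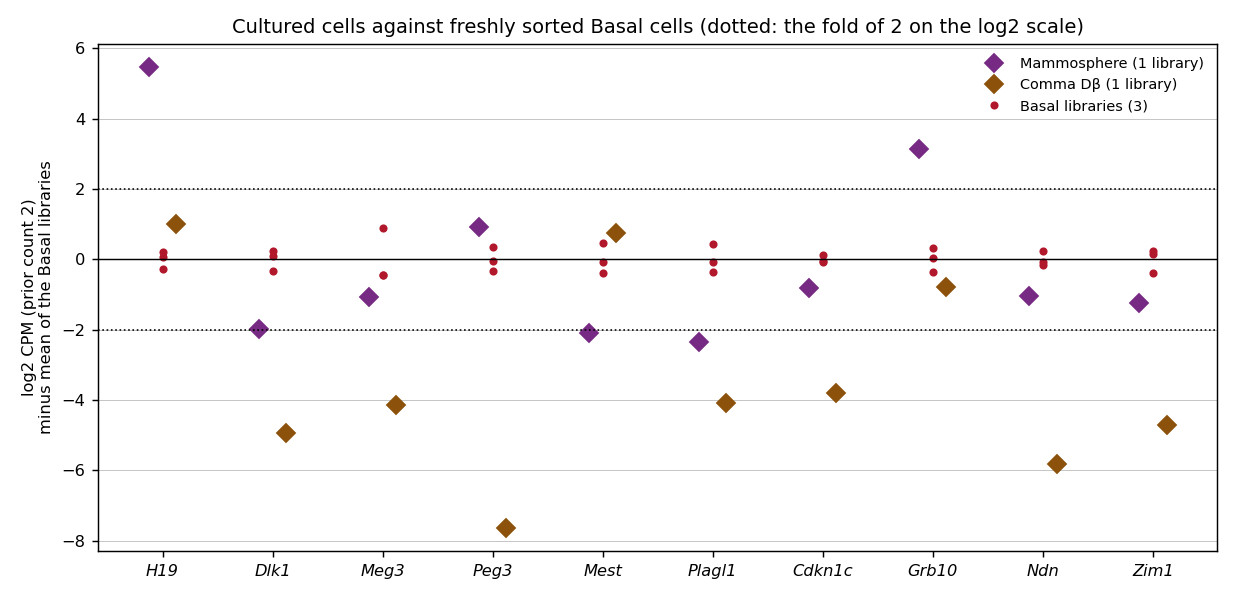
Difference in log2 CPM (prior count 2) from the mean of the 3 Basal libraries for the mammosphere and Comma Dβ libraries, with the Basal libraries as small points and dotted lines at a size of 2. H19 and Grb10 stand above the upper line in mammospheres (5.47 and 3.15), and 7 genes stand below the lower line in Comma Dβ cells, down to -7.63 for Peg3.

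Other imprinted genes were counted in the same way. Of 54 further imprinted genes listed by cluster, 52 were in the count tables and 39 passed the filter. Between Basal and LP cells 21 of the 39 were called (7 higher in Basal, 14 higher in LP), beside 57.4% of all genes tested. Between Basal and ML cells 20 were called (8 and 12), beside 58.7%, and between LP and ML cells 18 were called (6 and 12), beside 31.8%. Their median log2 fold changes were -0.23, -0.066 and 0.038, beside 1.22, 2.16 and 0.86 for the 10 growth regulators. Both lists were chosen with earlier results of these data known. The medians of the 10 also include Dlk1, which passed the filter through the Basal libraries. The contrast therefore describes the lists as chosen and is no test of them. Counts per gene cannot be assigned with certainty where the exons of imprinted genes overlap, as with Kcnq1ot1 and Kcnq1, which share 121 exon bases.

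Neighbours in a cluster went together in some clusters and apart in others. Beside Meg3, Rian had 3.25, 3.51 and 7.30 CPM in the Basal libraries and a mean of 0.660 CPM in ML cells (Basal minus ML log2 2.91, SE 0.55, adjusted p = 0.00118). Rian was the 1 gene of 4 in that list with enough reads to test, and Rtl1, Mirg and Dio3 were not tested. Beside Grb10, Cobl, an actin nucleator, was also higher in LP than in Basal cells (Basal minus LP log2 -2.47, SE 0.20, adjusted p = 4.29e-06), while its LP minus ML difference of 0.30 missed the threshold (adjusted p = 0.256). Cobl was at 74.3 CPM in the mammosphere library against a Basal mean of 13.4 CPM. Beside Mest, Copg2, a coat protein subunit transcribed from the other strand, was higher in ML than in Basal cells (Basal minus ML log2 -0.61, SE 0.12, adjusted p = 0.00162), opposite to Mest. Against LP cells Copg2 missed the threshold (Basal minus LP log2 0.21, SE 0.12, adjusted p = 0.164). Beside Peg3 and Zim1, Usp29 had at most 2 counts in any sorted library. Beside Cdkn1c, the potassium channel gene Kcnq1 and the transporter gene Slc22a18 were higher in LP cells, with Basal minus LP log2 of -5.42 (SE 0.57) and -5.19 (SE 0.25), and of the 8 genes tested there 1 was higher in Basal and 5 higher in LP. Beside Ndn, Peg12 (Basal minus LP log2 2.62, SE 0.54, adjusted p = 0.00200) and Atp10a (2.92, SE 0.33, adjusted p = 4.40e-05) were higher in Basal than in LP cells. Ube3a (-0.38, SE 0.16, adjusted p = 0.0705) and Mkrn3 (-0.17, SE 0.33, adjusted p = 0.690) missed the threshold there. Against ML cells Atp10a was also higher in Basal cells (log2 1.71, SE 0.31, adjusted p = 9.39e-04), while Peg12 missed the threshold (0.58, SE 0.47, adjusted p = 0.311). Beside H19, Igf2 was higher in Basal than in LP (log2 2.49, SE 0.90, adjusted p = 0.0367), with 64.5% of its exon bases shared with other gene models, while Basal minus ML was 1.36 (SE 0.84, adjusted p = 0.188).

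Imprinted genes of other clusters differed in both directions. Slc38a4, an amino acid transporter gene, averaged 14.1 CPM over the Basal libraries against 0.729 (LP) and 0.308 (ML) (Basal minus ML log2 5.47, SE 0.62), and Nnat had a Basal minus ML log2 of 2.03 (SE 0.28). Rasgrf1, a Ras exchange factor gene, went the other way since it averaged 59.7 CPM over the ML libraries against 9.93 (LP) and 0.398 (Basal), and Ppp1r9a averaged 44.8, 24.7 and 1.70 CPM in the same order.

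**Figure D5:**
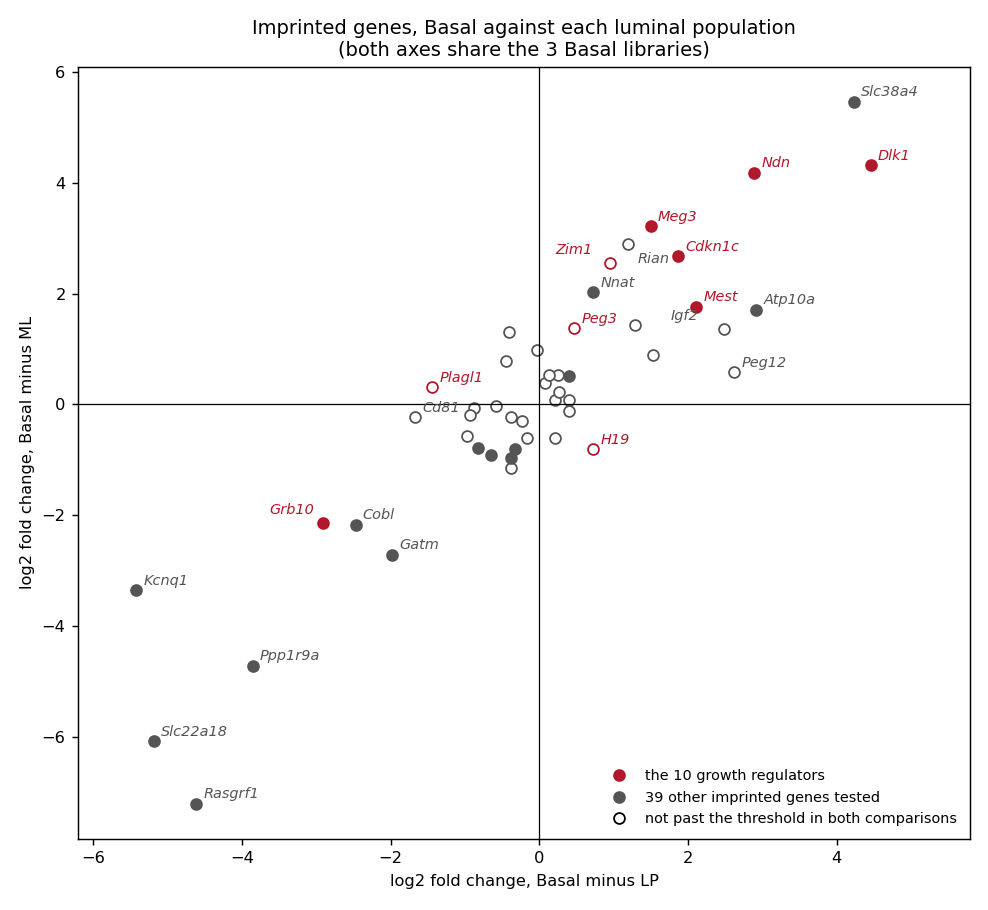
Log2 fold change of Basal minus LP (horizontal) against Basal minus ML (vertical) for the 10 growth regulators and the 39 other imprinted genes tested, where filled circles passed the threshold in both comparisons. Both axes share the Basal libraries, so the diagonal is no result in itself, and the growth regulators lie mostly to the upper right with Grb10 at -2.91 and -2.14.

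Relatives of the members that are not imprinted gave a further comparison, with all 11 listed genes tested and 7 called between Basal and LP (3 higher in Basal, 4 higher in LP), beside 57.4% of all genes, and 9 between Basal and ML (4 and 5), beside 58.7%. Dlk2, the closest relative of Dlk1, was at 30.2, 27.0 and 20.1 CPM in the Basal libraries and at most 0.455 CPM in a luminal library (Basal minus LP log2 6.51, SE 0.47, adjusted p = 2.25e-06). It exceeded 0.5 CPM in 5 libraries, 3 of them Basal and 0 luminal, so it entered the test through the group in which it was high. Grb7 was lower in Basal than in LP cells (-3.01, SE 0.19), while Grb14, also of the Grb10 family, stood at 0.64 (SE 0.26, adjusted p = 0.0582) and missed the threshold. Against ML cells both were lower in Basal cells, Grb7 by -3.68 (SE 0.19) and Grb14 by -0.79 (SE 0.26, adjusted p = 0.0228). Plag1, a relative of Plagl1, was higher in LP than in Basal (-3.69, SE 0.38) and than in ML (LP minus ML 1.84, SE 0.35, adjusted p = 0.00431). The other inhibitors of the Cdkn1c family, Cdkn1a (Basal minus LP log2 -0.056, SE 0.15, adjusted p = 0.770) and Cdkn1b (-0.53, SE 0.24, adjusted p = 0.0789), missed the threshold. The MAGE genes Maged1 (1.05, SE 0.14) and Maged2 (1.48, SE 0.12) were higher in Basal than in LP, as Ndn was. The receptor genes that Grb10 acts on differed, with Insr lower in Basal than in LP (-0.42, SE 0.12, adjusted p = 0.0105) and Igf1r higher in Basal than in ML (2.01, SE 0.31, adjusted p = 3.13e-04). Insr was also lower in Basal than in ML (-0.48, SE 0.12, adjusted p = 0.00475), while Igf1r missed the threshold for Basal minus LP (0.72, SE 0.30, adjusted p = 0.0647).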

How the data were processed

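RNA-seq was performed on 11 libraries, single-end, in 3 library batches (TruSeq for batch 1, its second version for batches 2 and 3). The deposited values are raw counts per Entrez gene, made by the authors with Rsubread alignment to mm10 and featureCounts, beside the gene length they used. Strand and multi-mapping settings are not given in the sources used here. Symbols and coordinates came from RefSeq (GRCm38.p6; 25275 of 27179 identifiers matched) and exon overlaps from GENCODE.

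Genes over 0.5 CPM in at least 3 libraries (15422) were scaled by TMM and tested with edgeR 4.0.16 quasi-likelihood, a mean for each of 5 groups over all 11 libraries, with Benjamini-Hochberg adjustment (threshold 0.05). Each standard error (SE) was derived from that test, as the size of the log2 fold change over the square root of the F statistic. The authors used limma, so limma voom (3.58.1) and DESeq2 (1.42.0) served as alternatives. The submitters' notes name edgeR 3.6.2, limma 3.20.5, CASAVA 1.8.0 and featureCounts. On simulated Basal against LP counts, 200 of 200 genes changed by 3 on the log2 scale were recovered with 8 false calls among 15422 genes. The simulation gave all genes the same dispersion, had no batch effect and held no smaller changes. It checks the code and does not show how firm the calls made here are. Cultures have 1 library each and were not tested. All 10 members, the imprinted list, the relatives and the 3 genes most correlated with each member could be named. The result of 1 marker list is not reported here. Members and lists were chosen with earlier results of these data known. Replicates differed by more than counting noise. The labels give the batch that libraries share. This is not a pairing of samples, since batch 2 held Basal replicates 2 and 3 and batch 3 held no Basal library. Deviations from group means correlated with a median r of 0.24 in 9 same-batch pairs of libraries (-0.12 to 0.53) and -0.10 in 18 others. The main fit had no batch term, and results with the batch as a replicate block are given below.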

Additional observations from a re-analysis of the deposited data

How the results depend on the processing

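The member calls between Basal and luminal cells held under the other scalings, filters and tests apart from those of Meg3 and Peg3 given above, with 6 to 7 of 10 called for Basal against LP and 8 of 10 for Basal against ML with any 1 library left out. The LP against ML calls were less firm. Genes called there numbered 2777 without batch 3, 1048 without batch 1, 1580 without the 3 doubted libraries and 3083 to 5205 with 1 library left out, and members called numbered 1, 3, 2 and 2 to 6. Genes called between Basal and LP numbered 5750 without batch 1. These fits hold fewer libraries. With 1 library left out Dlk1 ranged from -0.56 to 0.57 (LP minus ML), with 0.41 without LP replicate 1, and H19 from -1.25 to 0.59 (Basal minus ML), so neither has a settled direction. With the batch as a replicate block, 6, 8 and 4 members were called, and Meg3 was the gene that lost its calls (Basal minus LP 1.53, LP minus ML 1.59). Zim1 was not tested under a filter of 1 CPM, nor Dlk1 without batch 1. In Comma Dβ cells the sizes for Dlk1, Ndn and Zim1 depend on the prior count (Zim1 -6.66 to -3.46). Alternatives were run for the members and not for the neighbouring genes.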
